A study of Mus musculus with 16 samples.

Results

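Of 1498 CD4+ IL-4eGFP+ cells of the lung that passed the filters, 439 held at least 1 UMI (unique molecular identifier, 1 captured transcript) of *Il5* or *Il13*, the transcripts of the effector cytokines IL-5 and IL-13. These 439 cells are described here and termed producers, although a UMI shows transcript and not secreted protein, and the other 1059 lung cells are termed non-producers. Lung 1 gave 351 producers among 1082 cells and lung 2 gave 88 among 416. A cell was kept when it had more than 500 UMIs, more than 500 genes, under 7% mitochondrial UMIs and a productive T-cell receptor (TCR) α- and β-chain. The cells came from 2 female 4get mice on the C57BL/6 background, 13 weeks old, that had received 500 larvae of *Nippostrongylus brasiliensis* (Nb) under the skin 10 days earlier, and there was no uninfected group. 4get mice carry an IL-4eGFP reporter, so every cell in the comparison had been sorted for it. The lungs had been perfused but still held some intravascular cells, and the mesenteric lymph nodes (MLN) of the same mice gave 2462 and 754 further cells, 40 of them with *Il5* or *Il13*. Both mice were infected, so producers and non-producers share the reporter, the infection and, within a mouse, the library.

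IL-5 is the main growth factor of eosinophils, and IL-13 acts on epithelium, goblet cells and macrophages. T helper 2 (Th2) cells read both genes from 1 locus under the transcription factor GATA3. In peripheral tissue, Th2 cells can also be driven by epithelial alarmins, among them IL-33, whose receptor chain ST2 is encoded by *Il1rl1*. Such effector cells are distinct from recirculating and central memory T cells, which carry the homing receptor CCR7 and the egress receptor S1P1 (*S1pr1*).

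*Il5* lies on chromosome 11 at chr11:53720794-53725106 on the plus strand and *Il13* at chr11:53631324-53634702 on the minus strand (GRCm38, GENCODE). The gene bodies of *Il13* and *Il5* are 86.1 kb apart, with *Rad50* between them, and *Il4* lies 12.7 kb beyond *Il13*. An antisense gene, Gm12214, overlaps *Il5*. The RefSeq promoters of the 2 genes that select the cells are shown because transcripts of these genes select the cells, with 250 bases before and 50 after the start, written 5′ to 3′ on the gene's strand, from GRCm38.p6. Capitals mark matches to the motif AGATAN, whose letters include the core bound by GATA3 and its relatives, searched on both strands.
Il5, chr11:53720544-53720843, plus strand: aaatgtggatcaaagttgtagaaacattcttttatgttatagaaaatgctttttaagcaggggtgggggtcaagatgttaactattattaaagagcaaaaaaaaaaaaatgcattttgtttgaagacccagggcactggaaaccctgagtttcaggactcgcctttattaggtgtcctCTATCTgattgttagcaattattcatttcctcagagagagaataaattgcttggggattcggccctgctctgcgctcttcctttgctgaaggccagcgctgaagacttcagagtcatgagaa
Il13, chr11:53634653-53634952, minus strand: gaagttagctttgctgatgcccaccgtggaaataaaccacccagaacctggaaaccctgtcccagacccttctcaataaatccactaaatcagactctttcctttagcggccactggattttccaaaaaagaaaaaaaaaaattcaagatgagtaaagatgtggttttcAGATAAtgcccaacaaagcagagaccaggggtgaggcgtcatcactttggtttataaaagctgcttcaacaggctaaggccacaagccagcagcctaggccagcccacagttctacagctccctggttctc
Each promoter held 1 match, on the reverse strand in *Il5* and on the forward strand in *Il13*. Of 32544 mouse promoters of this length, 29.5% held a match, and a match is a description of the letters, not a bound site.

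The values that chose the cells are given as a description and were not tested. In lung 1, producers made up 32.4% of cells (95% Clopper-Pearson interval 29.7 to 35.3), and in lung 2 they made up 21.2% (17.3 to 25.4). With each cell thinned at random to 2000 UMIs, the shares were 20.3% in lung 1 and 12.99% in lung 2. In MLN 1 the share was 1.22% (30 of 2462 cells) and in MLN 2 it was 1.33% (10 of 754). Intervals of shares cover counting error only. Lung cells with 3 or more UMIs of *Ccr7* and *S1pr1* together, a recirculating phenotype in which free RNA can be read, had the transcripts in 5 of 110 cells in lung 1 (4.55%, 1.49 to 10.3) at a median of 7894.5 UMIs and in 5 of 71 in lung 2 (7.04%, 2.33 to 15.7) at a median of 6716 UMIs. The share in all lung cells, which include these, was higher in both mice, at medians of 6910 and 5765.5 UMIs. Cells of this phenotype may also transcribe the genes, so their share does not measure free RNA. The part of free RNA in the shares was not tested.

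*Il13* was found in most producers and *Il5* in few. In lung 1, 248 producers had *Il13* alone, 70 had both and 33 had *Il5* alone. In lung 2 the numbers were 68, 15 and 5. Cells with both transcripts had a median of 6 *Il13* UMIs in lung 1, against 3 in cells with *Il13* alone, while in lung 2 both medians were 2. A small share of the cells carried a large share of the transcripts. Of the 759 *Il5* UMIs of lung 1, 56.3% came from the 10 cells with the most, and the highest cell had 129. Of its 2730 *Il13* UMIs, 32.7% came from 10 cells, and the highest cell had 180. In lung 2, the 10 highest cells held 84.9% of 86 *Il5* UMIs and 54.8% of 356 *Il13* UMIs. At the threshold itself, 89 of 351 producers in lung 1 and 33 of 88 in lung 2 had exactly 1 UMI of the 2 genes together, and the cells just outside had 0.

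**Figure D1:**
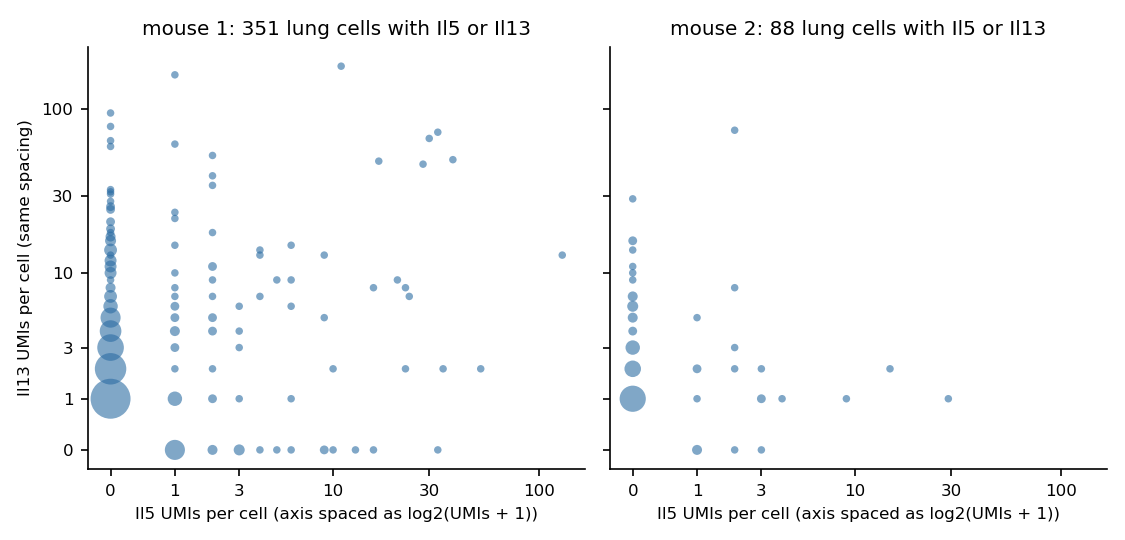
Il5 UMIs (x axis) against Il13 UMIs (y axis) of each lung producer in mouse 1 (left) and mouse 2 (right), both axes spaced as log2(UMIs + 1), larger points standing for more cells with the same pair of values. Most cells sit on the left edge with Il13 alone, and the cells with many UMIs of both genes are few.

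Producers and non-producers were both T cells by their markers. At 2000 UMIs per cell, *Cd3e* was found in 81.4% of producers and 86.2% of non-producers of lung 1, and in 86.4% and 84.4% in lung 2. *Gata3*, the Th2 lineage factor, was found in 76.8% and 70.4% in lung 1 and in 72.7% and 70.6% in lung 2. Markers of B cells and red blood cells were at 0 in all lung sums. Of 12 myeloid markers, 8 were at 0, among them *Lyz2*, *Csf1r* and *C1qa*, and the most abundant was *Cd74*. The summed myeloid level was 68.8 CPM (counts scaled to the same library total) in producers and 48.0 CPM in non-producers of lung 1, and 102 CPM and 39.1 CPM in lung 2. *Cd74* passed the test below (log2 difference 0.77 ± 0.25 SE, edgeR adjusted p = 0.0439), but with cells counted whether or not they had a TCR its difference was -0.74. *Cd74* did not pass without the mouse as a block (0.81, edgeR adjusted p = 0.239) or with non-producers matched on UMIs (0.36, 0.686). Of 6 basophil and mast cell markers, *Fcer1a* and *Gata2* were at 0, the most abundant was *Cd200r3*, and the summed level was 55.9 CPM in producers against 25.7 CPM in non-producers of lung 1 and 11.4 CPM against 10.9 CPM in lung 2. Eosinophil markers summed to 5.73 CPM against 1.39 CPM in lung 1 and 11.4 CPM against 3.12 CPM in lung 2, with *Epx* and *Prg2* at 0. Epithelial and stromal markers, chiefly *Pecam1*, were at 20.1 CPM against 47.3 CPM and 17.0 CPM against 42.2 CPM. *Pecam1* passed as lower in producers (-1.19 ± 0.39, edgeR adjusted p = 0.0412), but not without the mouse as a block (0.235). CD8 T and NK cell markers, chiefly *Cd8b1*, were at 22.9 CPM against 6.95 CPM and 5.68 CPM against 7.81 CPM, with *Cd8a* at 0. The part of these transcripts in the differences was not tested.

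Producers were also read more deeply. Their median was 7530 UMIs in lung 1 against 6661 in non-producers, and 6530 against 5604.5 in lung 2, where a deeper cell has more chance to show an *Il5* or *Il13* UMI. Total UMIs were 3015715 in producers and 5491534 in non-producers of lung 1, and 707378 and 2090854 in lung 2. For this reason each cell was thinned to 2000 UMIs, and the thinned counts were summed per mouse and class into 4 sums. *Il5*, *Il13* and the TCR genes were left out. The sums were compared with edgeR's quasi-likelihood test with the mouse as a block, which leaves 1 residual degree of freedom. In such sums, fewer cells with a transcript and less transcript per cell cannot be told apart. Among passing cells, 12 lung barcodes also occurred in an MLN library, 4 of them producers, and lung 1 and lung 2 shared none.

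Of 6627 genes tested, 365 (5.51%) passed an adjusted p of 0.05, 167 (2.52%) higher in producers and 198 (2.99%) lower, and 1032 (15.6%) had an unadjusted p under 0.05. The producers of both mice carried more transcript of *Igfbp7*, *Ccl1*, *Klrg1*, *Il2ra*, *Il4* and *Ccr8*. They also carried more of *Areg*, *Il1rl1* and *Pdcd1*, whose calls were lost without the mouse block, that of *Il1rl1* also without the cells with *Ccr7* or *S1pr1*. They carried less transcript of *S1pr1*, *Ccr7*, *Tcf7* and other genes of recirculating and central memory T cells. In 354 of the 365 genes the difference had the same sign in both mice, which the choice by a fit over both mice favours, against 58.3% of all genes tested. Among the 11 that did not was the chemokine gene *Cxcl2*, chosen here after its values were seen, with 503 CPM in producers and 115 CPM in non-producers of lung 1 but 11.4 CPM and 42.2 CPM in lung 2. Its call (log2 difference 1.88 ± 0.16 SE) rested on lung 1, and without the lung 1 producers the difference was -3.04. Without the mouse block 80 genes passed, 40 higher and 40 lower, and without the cells with a UMI of *Ccr7* or *S1pr1*, left out after the data were seen, 129 passed, 73 higher and 56 lower. Without the lung 1 producers 33 passed. The counts of the gene lists are to be read against the 2.52% higher and 2.99% lower of all genes tested.

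**Figure D2:**
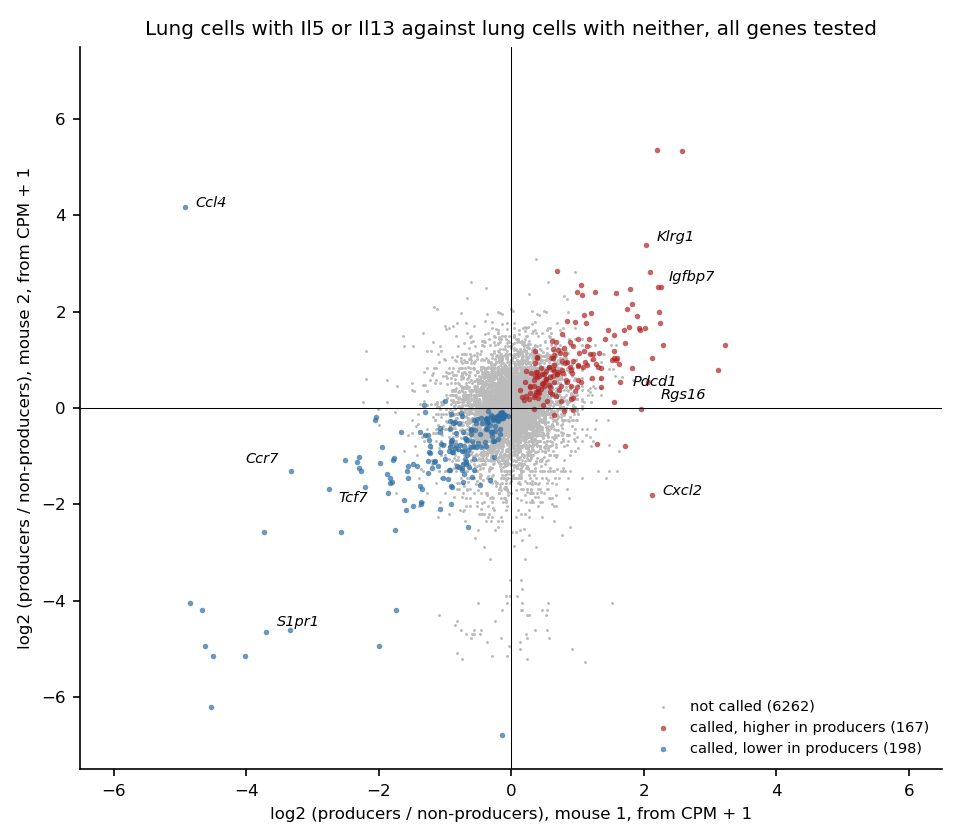
Log2 ratio of CPM + 1 between producers and non-producers in mouse 1 (x axis) and mouse 2 (y axis) for the 6627 genes tested, each point 1 gene, coloured by the edgeR call. Called genes lie mainly in the lower left and upper right corners, while Cxcl2 and Ccl4 are called although the mice go opposite ways, and the band of points near the bottom holds genes at or near 0 in the 88 producers of mouse 2.

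*Klrg1*, an inhibitory receptor of highly differentiated lymphocytes, was at 77.4 CPM in producers and 18.1 CPM in non-producers of lung 1, and at 108 CPM and 9.38 CPM in lung 2. Producers were higher in each mouse without overlap between the classes, and the log2 difference was 2.43 ± 0.31 (SE; edgeR adjusted p = 1.06e-12). *Igfbp7*, a secreted binding protein of insulin-like growth factors, was at 246 and 244 CPM in the producers of the mice and at 52.2 and 42.2 CPM in the non-producers (2.30 ± 0.19, adjusted p = 2.33e-30 by edgeR). It was found in 26.6% of producers and 7.09% of non-producers of lung 1, and in 29.5% and 5.94% in lung 2. *Ramp1*, a co-receptor for the neuropeptide CGRP, was at 143 and 136 CPM against 39.6 and 29.7 CPM (1.92 ± 0.22). *Ltb4r1*, the high-affinity leukotriene B4 receptor, was at 218 and 142 CPM against 66.1 and 45.3 CPM (1.69 ± 0.19). *Il2ra*, which encodes CD25 of the IL-2 receptor, was at 145 and 142 CPM against 53.5 and 51.6 CPM (1.42 ± 0.21). These 5 genes kept their calls without the block, without the cells with *Ccr7* or *S1pr1* and with non-producers matched on UMIs. With DESeq2 *Il2ra* did not pass and the others did.

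Of the receptors of the working markers, *Pdcd1*, which encodes PD-1, differed most. It was at 597 CPM in producers and 191 CPM in non-producers of lung 1, but only at 159 CPM and 109 CPM in lung 2. On the log2 scale producers were higher by 1.43 ± 0.13 (adjusted p = 8.36e-24 by edgeR). The log2 ratio of CPM + 1 was 1.64 for mouse 1 but 0.54 for mouse 2. Producers were higher than non-producers within each mouse, but lung 2 producers lay below lung 1 non-producers, and the call was lost without the block (adjusted p = 0.0704 by edgeR). *Il1rl1* was at 635 and 335 CPM in producers against 414 and 273 CPM in non-producers (0.52 ± 0.11, edgeR adjusted p = 0.000152, but 0.544 without the block and 0.0604 without the cells with *Ccr7* or *S1pr1*). It was found in 42.0% and 32.5% of lung non-producers and in 58.7% and 44.3% of producers, against 1.01% and 0.819% of MLN non-producers at the same depth. *Areg*, which encodes the epithelial growth factor amphiregulin, was at 2271 CPM in producers and 1049 CPM in non-producers of lung 1 and at 812 CPM and 416 CPM in lung 2 (1.06 ± 0.07, edgeR adjusted p = 2.06e-44, and 0.299 without the block). For *Areg*, *Il1rl1* and *Pdcd1* the producers of the 2 mice lay further apart than the producers and non-producers of lung 1, and without the lung 1 producers the differences were -0.01, -0.19 and -0.11. That fit has no mouse block and sets lung 2 producers against the non-producers of both mice. Within mouse 2 the log2 ratios of CPM + 1 were 0.97, 0.29 and 0.54.

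*Pparg*, a lipid-sensing nuclear receptor used by tissue Th2 cells, was at 107 and 51.1 CPM in producers against 34.1 and 26.6 CPM (1.51 ± 0.24), and *Plin2*, which coats lipid droplets, was at 120 and 45.5 CPM against 33.4 and 25.0 CPM (1.67 ± 0.24). Neither passed with DESeq2. Without the lung 1 producers, in a fit that has no mouse block, *Pparg* was at 0.57 and *Plin2* at 0.45. *Hlf*, a PAR bZIP transcription factor, was at 145 and 90.9 CPM against 38.2 and 23.4 CPM (1.91 ± 0.23). *Zeb2*, a zinc finger repressor of terminal effector T cells, was at 93.1 and 79.5 CPM against 33.4 and 25.0 CPM (1.50 ± 0.25). *Phlda1* was at 523 and 307 CPM against 178 and 106 CPM (1.53 ± 0.13), *Ttc39c* at 115 and 79.5 CPM against 29.2 and 25.0 CPM (1.88 ± 0.24), and *Ifitm2*, an interferon-inducible antiviral gene, at 163 and 114 CPM against 56.3 and 56.2 CPM (1.39 ± 0.21). *Rgs16*, a regulator of G protein signalling, was at 93.1 and 68.2 CPM against 21.6 and 46.9 CPM (1.61 ± 0.25). Its log2 ratio of CPM + 1 was 2.06 in mouse 1 but 0.53 in mouse 2. With DESeq2 *Zeb2*, *Ttc39c*, *Ifitm2* and *Rgs16* did not pass either, while *Hlf* and *Phlda1* did.

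**Figure D3:**
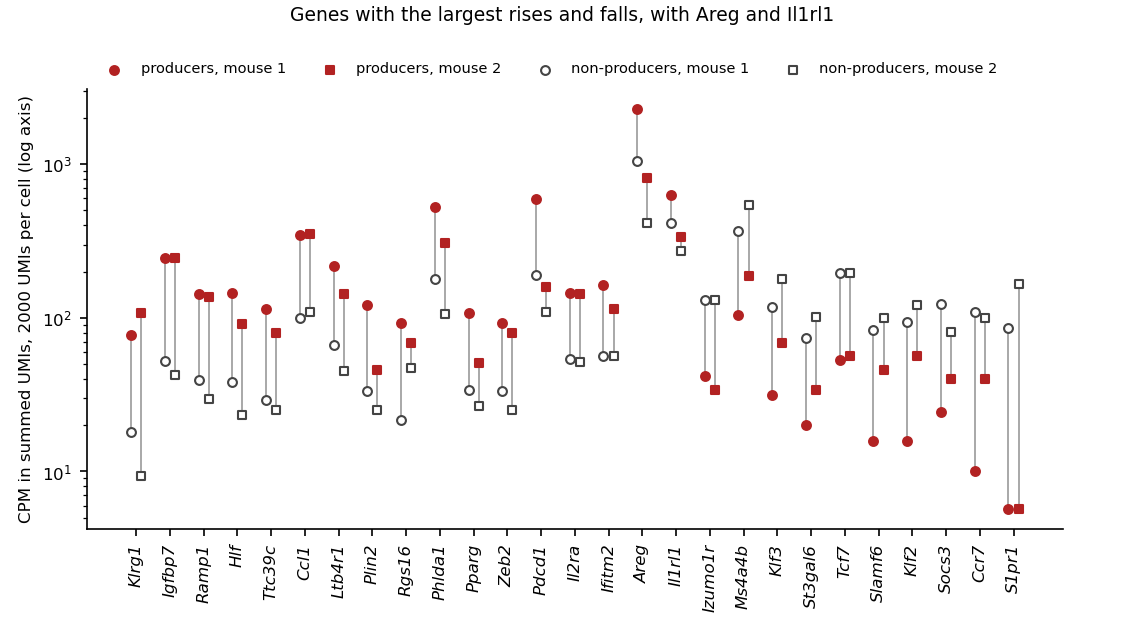
CPM (log axis) of the 15 genes with the largest rises, Areg, Il1rl1 and the 10 genes with the largest falls, in the sums of producers (filled) and non-producers (open) of mouse 1 (circles) and mouse 2 (squares), with a line joining the classes of 1 mouse. Filled points lie above open ones for the rises in both mice and below them for the falls, and for Pdcd1 and Areg mouse 2 lies below mouse 1.

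Among chemokines and other secreted factors, 8 of 16 tested genes (26 in the list) were higher and 2 lower, with a median log2 difference of 0.62, against -0.0023 over all genes tested. Without the block 4 were higher and none was lower. *Ccl1*, the ligand of CCR8, was at 345 and 352 CPM in producers against 100 and 109 CPM in non-producers (1.74 ± 0.15, edgeR adjusted p = 1.93e-27). Its receptor gene *Ccr8*, a marker of Th2 cells, also rose, from 135 and 111 CPM to 319 and 244 CPM (1.20 ± 0.15). The prothrombinase *Fgl2* (1.17 ± 0.12) and the proprotein convertase *Furin* (1.05 ± 0.12) rose, as did *Tnfsf8*, the CD30 ligand (0.71 ± 0.14), and *Tnfsf11*, which encodes RANKL (0.54 ± 0.14), but the calls of *Tnfsf8* (edgeR adjusted p = 0.0603) and *Tnfsf11* (0.275) were lost without the block and that of *Tnfsf11* also without the cells with *Ccr7* or *S1pr1* (0.281). The difference of *Fgl2* was 0.60 without the lung 1 producers, in a fit that has no mouse block. Its log2 ratio of CPM + 1 within mouse 2 was 0.92. The 2 lower genes were *Ccl4* and *Ccl5*. *Ccl4* was at 0 in producers and 29.2 CPM in non-producers of lung 1 but at 17.0 CPM and 0 in lung 2, and *Ccl5* was at 15.8 and 17.4 CPM in lung 1 against 0 and 109 CPM in lung 2, so that each call rested on 1 mouse. With cells counted whether or not they had a TCR, the difference of *Ccl4* was 0.81.

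Of 10 tested other T cell cytokines (19 in the list), 2 were higher, none was lower and the median was 0.73. *Il4*, which the reporter follows, was at 632 and 824 CPM in producers against 341 and 316 CPM (1.04 ± 0.10, edgeR adjusted p = 2.28e-20). *Il6* was at 60.2 and 56.8 CPM against 16.7 and 9.38 CPM (1.99 ± 0.35). *Il10* (0.99 ± 0.34, adjusted p = 0.0645 by edgeR), *Tnf* (0.80 ± 0.40), *Csf2* (0.71 ± 0.40) and *Il2* (0.20 ± 0.40) did not pass. *Il10* passed in edgeR with all UMIs (adjusted p = 1.15e-06), with producers of at least 2 UMIs (0.0162), with 1 cell per clone (0.0434) and where no TCR was needed (0.000128). With 1 sum left out, in fits that have no mouse block, its value went from -0.02 (without lung 1 producers) to 2.07 (without lung 1 non-producers). Within the mice its log2 ratio of CPM + 1 was 0.98 for mouse 1 and 0.99 for mouse 2, the latter from 4 and 7 UMIs. *Csf2* passed with all UMIs (0.00167) and where no TCR was needed (0.00022). Of the genes at the locus, looked up after the values were seen, *Rad50*, which lies between *Il13* and *Il5*, was at 93.1 and 125 CPM in producers against 59.1 and 57.8 CPM (0.77 ± 0.22, edgeR adjusted p = 0.0155, and 0.133 without the block). *Rad50* also did not pass without the cells with *Ccr7* or *S1pr1* (0.73, edgeR adjusted p = 0.0945). With non-producers matched on UMIs it had 0.80 (0.0814), and without TCR multiplets 0.73 (0.0962). *Kif3a*, a kinesin gene beyond *Il4*, had a difference of 0.09 ± 0.36, and *Irf1*, beyond *Il5*, had -0.56 ± 0.20 with an adjusted p of 0.0848 by edgeR and of 0.00399 under another random thinning. *Irf1* also passed in edgeR with all UMIs (-0.44, adjusted p = 0.00341) and with producers of at least 2 UMIs (-0.98, 0.00207).

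The Th2 identity list had 3 of 9 tested genes higher (*Il4*, *Ccr8*, *Il1rl1*) and 1 lower, with a median of 0.16. The lower gene was *Ccr4*, another Th2 homing receptor, at 57.3 and 68.2 CPM in producers against 111 and 169 CPM (-1.07 ± 0.22). The lineage factors themselves did not pass: *Gata3* was at 958 and 864 CPM against 834 and 788 CPM (0.16 ± 0.08, edgeR adjusted p = 0.312, but 0.28 with 0.026 under another random thinning), *Maf* had a difference of -0.01 ± 0.13 and *Stat6* one of -0.52 ± 0.25. The IL-25 receptor gene *Il17rb* had 0.28 ± 0.40. In the alarmin and IL-1 family list, 2 of 14 tested genes rose, none fell and the median was 0.11. Beside *Il1rl1* this was *Il1r2*, the decoy receptor for IL-1, at 64.5 and 39.8 CPM in producers against 13.2 and 0 CPM (2.58 ± 0.38).

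Among other helper T cell transcription factors, 6 of 20 tested were higher and 2 lower, with a median of 0.13. *Bhlhe40* rose by 0.84 ± 0.11, *Id2* by 0.49 ± 0.11 and *Rora* by 0.47 ± 0.14, beside *Hlf*, *Pparg* and *Zeb2*, and the calls of *Id2* and *Rora* were lost without the block and without the cells with *Ccr7* or *S1pr1*. *Satb1*, a chromatin organiser of less differentiated T cells, was lower at 81.7 and 51.1 CPM against 213 and 159 CPM (-1.45 ± 0.19), and *Ets1* was lower by a smaller margin (-0.40 ± 0.10), a call lost in the same way. Of 12 tested AP-1 and BATF genes none was higher and only *Fos* was lower (-0.38 ± 0.10), with a median of -0.04, and the call of *Fos* was lost without the block. *Junb* had -0.11 ± 0.04 (edgeR adjusted p = 0.126), but -0.19 with 0.00176 when all UMIs were used.

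Of 19 tested inhibitory and costimulatory receptors, 4 were higher (*Klrg1*, *Pdcd1*, *Lag3* and *Cd200r1*) and 3 lower (*Cd27*, *Icos* and *Cd28*), with a median of -0.04. Without the block *Klrg1*, *Lag3* and *Cd27* still passed, and *Cd200r1* and *Cd28* were lost without the cells with *Ccr7* or *S1pr1* too. In the fit without these cells the difference of *Cd28* was -0.45 in place of -0.47, and that of *Cd200r1* 0.58 in place of 0.75. *Lag3* was at 109 and 73.9 CPM against 43.1 and 32.8 CPM (1.28 ± 0.23) and *Cd27* at 44.4 and 39.8 CPM against 91.8 and 111 CPM (-1.16 ± 0.25, with an edgeR adjusted p of 0.0992 where non-producers were matched on UMIs). *Ctla4* had 0.08 ± 0.10. Genes that follow recent TCR triggering gave 3 higher and 1 lower of 22 tested, with a median of 0.11: *Egr1* (0.57 ± 0.17), *Egr3* (2.17 ± 0.47) and *Rgs16* rose, while *Icos* was lower, and *Nr4a1* (0.23 ± 0.08, edgeR adjusted p = 0.0523, and 0.0398 under another random thinning) and *Cd69* (-0.16 ± 0.12) did not pass. *Nr4a1* also passed in edgeR with producers of at least 2 UMIs (adjusted p = 0.00501) and where no TCR was needed (0.00158). With 1 cell per clone it had 0.0416 and with DESeq2 size factors 0.0458. Its log2 ratio of CPM + 1 was 0.39 in mouse 1 but -0.09 in mouse 2. The call of *Egr1* was lost without the block (edgeR adjusted p = 0.639) and without the cells with *Ccr7* or *S1pr1* (0.428), and that of *Icos* without the block (0.157). In the NF-κB list 1 of 18 was higher, *Nfkb1* (0.83 ± 0.13), and 1 lower, *Tnfaip3* (-0.28 ± 0.09), with a median of 0.12. The call of *Tnfaip3* was lost without the block, at a difference of -0.30. It was also lost without the cells with *Ccr7* or *S1pr1*, at a difference of -0.39 (edgeR adjusted p = 0.0518). In the IL-2 receptor, STAT5 and SOCS list, *Il2ra* alone of 17 was higher, *Il2rb* had 0.27 ± 0.17, and 4 were lower (*Socs3*, *Socs1*, *Myc* and *Jak1*), with a median of -0.12. None of these 4 passed without the cells with *Ccr7* or *S1pr1*, and only *Socs3* passed without the block. Without those cells the differences were -0.96 in place of -2.04 for *Socs3* and -0.46 in place of -0.75 for *Socs1*. They were -1.25 in place of -1.15 for *Myc* and -0.31 in place of -0.40 for *Jak1*. *Socs1* was lower in lung 1 only, at 74.5 against 150 CPM, and was at 102 against 92.2 CPM in lung 2. None of 12 TGF-β pathway genes passed in either direction, with a median of -0.04.

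Of 15 tested genes of recirculating and central memory T cells (21 in the list), 13 were lower, none was higher and the median was -1.87. Without the cells with *Ccr7* or *S1pr1*, 5 of 11 were lower and the median was -1.06, and without the block 11 of 15 were lower. *S1pr1* was at 5.73 and 5.68 CPM in producers against 86.2 and 167 CPM in non-producers (-4.15 ± 0.41, edgeR adjusted p = 2.43e-21). It was found in 1.15% of producers and 12.2% of non-producers of lung 1, and in 1.14% and 22.2% in lung 2. *Ccr7* was at 10.0 and 39.8 CPM against 109 and 100 CPM (-2.72 ± 0.32). The transcription factors of this state fell as well. *Klf2*, which drives *S1pr1*, was at 15.8 and 56.8 CPM against 94.6 and 122 CPM (-2.04 ± 0.29), *Klf3* had -1.74 ± 0.25, *Tcf7*, which encodes TCF-1, was at 53.0 and 56.8 CPM against 195 and 197 CPM (-1.87 ± 0.21), and *Lef1* had -1.08 ± 0.29, which did not pass without the block (edgeR adjusted p = 0.157) or without the cells with *Ccr7* or *S1pr1* (0.427). *Slamf6* (-1.98 ± 0.31), *Il6ra* (-1.86 ± 0.34), the actin cross-linker *Actn1* (-3.74 ± 0.56) and *Rflnb* (-5.50 ± 0.64) were lower, *Rflnb* being read by 1 and 0 UMIs in producers. In the fit without the lung 1 producers, which has no mouse block, *Ccr7* was at -1.53, *Klf2* at -1.01, *Slamf6* at -1.10 and *Lef1* at -0.38. *S1pr1* was then at -4.47 and *Tcf7* at -1.90. *Il6ra* did not pass without the cells with *Ccr7* or *S1pr1* (edgeR adjusted p = 0.263). *Il7r*, which is also read in tissue T cells, did not pass (0.16 ± 0.11).

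Other large falls were *Socs3*, a feedback inhibitor of cytokine signals, at 24.4 and 39.8 CPM against 123 and 81.2 CPM (-2.04 ± 0.28), *St3gal6*, a sialyltransferase, at 20.1 and 34.1 CPM against 73.7 and 102 CPM (-1.80 ± 0.30), *Ms4a4b* at 105 and 188 CPM against 366 and 545 CPM (-1.73 ± 0.15) and *Izumo1r*, which encodes folate receptor 4, at 41.5 and 34.1 CPM against 130 and 131 CPM (-1.72 ± 0.25). Leaving out every lung cell with a UMI of *Ccr7* or *S1pr1* kept 491 of 719 thinned non-producers in lung 1 and 191 of 320 in lung 2, and 311 of 349 and 66 of 88 producers. Of the 10 named falls, *Tcf7*, *St3gal6*, *Klf3*, *Ms4a4b* and *Izumo1r* then still passed, *Socs3*, *Klf2* (edgeR adjusted p = 0.365) and *Slamf6* did not, and *S1pr1* and *Ccr7* could no longer be tested. The log2 difference of *Tcf7* was then -1.06 in place of -1.87. All 15 named rises still passed in this fit, which is milder than the one it replaced. *Satb1* and *Gpr183* remained lower as well.

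Homing and retention genes moved both ways, 6 higher and 5 lower of 22 tested, with a median of -0.16. Beside *Ccr8* and *Ltb4r1*, *Ccr1* (2.18 ± 0.57), *Adam8* (0.69 ± 0.21), *Plac8* (0.53 ± 0.08) and *Cxcr6*, a receptor of tissue-resident T cells (0.32 ± 0.09), were higher. These 4 lost their calls without the block and without the cells with *Ccr7* or *S1pr1*, where 2 of the list were higher and 3 lower. In the fit without these cells *Ccr1* was at 1.94, *Adam8* at 0.55, *Plac8* at 0.27 and *Cxcr6* at 0.06. *Gpr183*, a receptor for oxysterols, was at 100 and 193 CPM against 283 and 434 CPM (-1.40 ± 0.16), and the gut homing receptor *Ccr9* was at 24.4 and 11.4 CPM against 84.1 and 70.3 CPM (-1.92 ± 0.31), although the annotated *Ccr9* gene overlaps *Lztfl1* on the other strand. *Ccr4*, *Itgb1* (-0.43 ± 0.12) and *Itgb7* (-0.42 ± 0.13) were lower, the last 2 not without the block or without the cells with *Ccr7* or *S1pr1*.

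In the glycolysis and hypoxia list 6 of 20 tested genes were higher and none lower, with a median of 0.11. None of the 6 passed without the block, and 3 passed without the cells with *Ccr7* or *S1pr1* (*Eno1*, *Ero1l* and *Hilpda*). Of the glycolytic enzymes, *Eno1* rose by 0.48 ± 0.10, *Aldoa* by 0.31 ± 0.09 and *Gapdh* by 0.27 ± 0.05. *Ldha* did not pass (0.14 ± 0.07, edgeR adjusted p = 0.3). *Hif1a* rose by 0.45 ± 0.12, the endoplasmic oxidase *Ero1l* by 0.89 ± 0.16 and *Hilpda*, a lipid droplet protein, by 0.75 ± 0.09, the last at 1242 against 648 CPM in lung 1 and 455 against 392 CPM in lung 2. The difference of *Hilpda* was -0.34 without the lung 1 producers, in a fit that has no mouse block. Of 24 genes of the secretory pathway, *Manf* (0.67 ± 0.18) and *Sec11c* (0.50 ± 0.13) were higher and none was lower, with a median of 0.21, and neither passed without the block. Of the cell cycle genes, *Tyms* (1.53 ± 0.29) passed of 17 tested S phase genes (median 0.26) and *Cks2* (0.83 ± 0.21) of 12 tested G2 and M phase genes (median 0.64), both higher, and none was lower. *Cks2* did not pass without the block (edgeR adjusted p = 0.0868), nor *Tyms* without the cells with *Ccr7* or *S1pr1* (0.0583). The summed S phase level was 864 CPM in producers against 684 CPM in lung 1 and 1119 against 795 CPM in lung 2, and that of G2 and M phase 1054 against 1007 CPM and 1597 against 1283 CPM. Cells with 10 or more UMIs of the G2 and M phase list were 14.5% of producers and 14.9% of non-producers in lung 1. In lung 2 they were 19.3% and 14.6%. These cells were counted over all UMIs, not at equal depth, and producers were deeper. In the heat shock and dissociation list 3 of 19 were higher and 5 lower (median -0.12), in the interferon list 2 of 9 lower and none higher (median -0.20), and in the cytotoxic list 1 of 5 higher and 1 lower (median -0.03). Without the block none of these 3 lists held a call. Of 11 T cell identity genes, *Cd4* was higher (0.53 ± 0.13) and *Cd28* lower (median -0.02), neither without the block. Ribosomal protein genes, grouped after their values were seen, gave 34 lower and 0 higher of 93 tested, each by little (median -0.12), and reads of such genes can be shared with near-identical pseudogenes.

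The levels of several genes are given by the number of *Il5* and *Il13* UMIs as a description, because the rule counts those UMIs. *Igfbp7* in lung 1 was at 52.2 CPM in cells with 0, 136 CPM in cells with 1, 222 CPM in cells with 2 to 4 and 333 CPM in cells with 5 or more. In lung 2 it was at 42.2, 227, 241 and 269 CPM. *Ccl1* and *Il4* were far higher in the cells with 5 or more UMIs than in the others. In lung 1 *Ccl1* was at 100, 165, 107 and 649 CPM over the 4 classes and in lung 2 at 109, 0, 172 and 1000 CPM, and *Il4* went from 341 CPM at 0 to 837 CPM at 5 or more in lung 1 and from 316 to 1692 CPM in lung 2. *Gata3* stayed between 776 and 1034 CPM in every class of both mice. *Tcf7* was at 195, 131, 38.5 and 17.4 CPM in lung 1. In lung 2 it was at 197, 45.5, 103 and 19.2 CPM, with no even order, from 10 UMIs in all producers. Classes in lung 2 held 33, 29 and 26 producers, and cells with 5 or more UMIs were deeper, with a median of 8322.5 UMIs in lung 1 against 6445 in cells with 1.

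**Figure D4:**
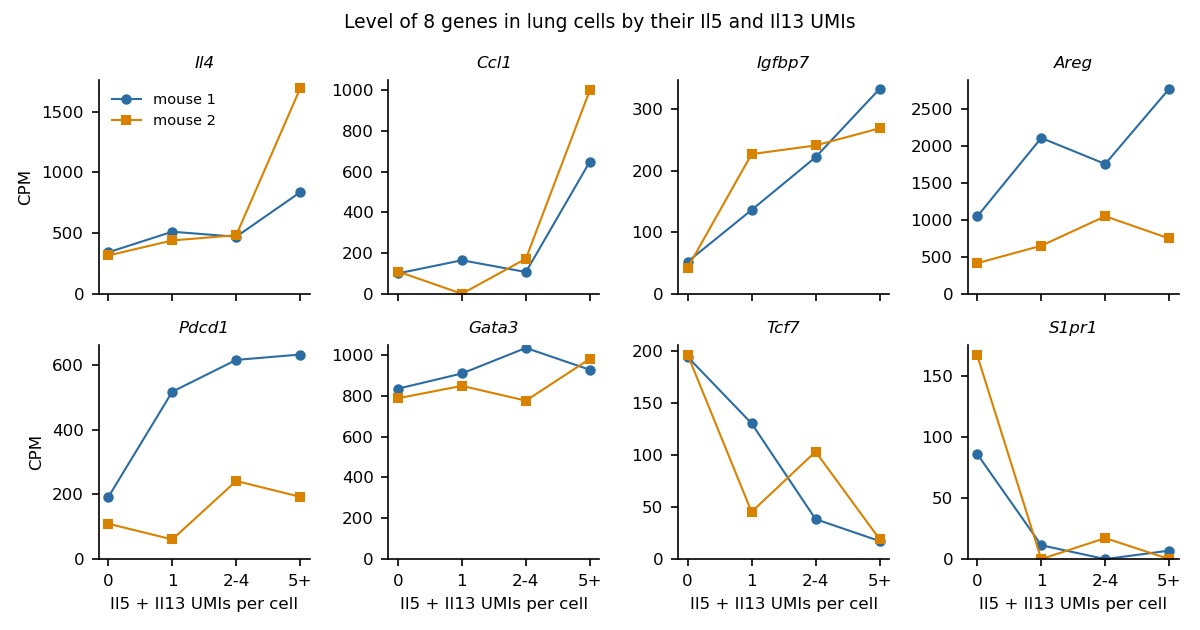
CPM (linear axes from 0) of 8 genes at 2000 UMIs per cell, in lung cells grouped by their Il5 and Il13 UMIs (0, 1, 2 to 4, 5 or more), for mouse 1 (circles) and mouse 2 (squares). Igfbp7 is higher at 1 UMI than at 0, Il4 and Ccl1 rise at 5 or more, S1pr1 is near 0 in all producer groups and Gata3 is nearly level.

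Producers differed among themselves by which cytokine they held. Cells with *Il5*, with or without *Il13* (103 in lung 1 and 20 in lung 2), were compared with cells with *Il13* alone (246 thinned cells in lung 1 and 68 in lung 2). Of 2707 genes tested by edgeR with the mouse block, 12 (0.443%) passed, 5 higher (0.185%) and 7 lower (0.259%) in cells with *Il5*, and 1 passed without the block. That gene was *Ctla4*, the inhibitory receptor CTLA-4, at 228 and 175 CPM in cells with *Il5* against 663 and 654 CPM in cells with *Il13* alone (-1.61 ± 0.23, edgeR adjusted p = 4.32e-09). *Il4* was at 388 and 375 CPM against 734 and 956 CPM (-1.03 ± 0.19, edgeR adjusted p = 7.68e-05, and 0.12 without the block). *Foxp1* (-1.52 ± 0.34), *Peli1*, a ubiquitin ligase (-1.35 ± 0.29), and the macrophage growth factor *Csf1* (-1.21 ± 0.31) were lower too. *Egr1* was at 257 and 600 CPM in cells with *Il5* against 128 and 154 CPM (1.28 ± 0.25, edgeR adjusted p = 0.000257), and *Odc1*, the rate-limiting enzyme of polyamine synthesis, at 277 and 225 CPM against 130 and 80.9 CPM (1.14 ± 0.27). *Crip1* (0.55 ± 0.11), *Cd52* (0.39 ± 0.10) and Gm42418, which overlaps a ribosomal RNA (0.37 ± 0.10), were slightly higher. None of the 12 calls held when the *Il13*-only cells of either mouse were left out. DESeq2 called none, at 7 genes with an unadjusted p under 0.05 against 183 (6.76%) in edgeR, and cells with *Il5* were deeper, at medians of 8231 against 7345 UMIs in lung 1 and 7233.5 against 6403.5 in lung 2.

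MLN cells with *Il5* or *Il13*, chosen by the same UMIs, were only 30 and 10. The log2 difference between producers and non-producers was itself different between lung and MLN in 16 of 7638 genes (0.209%) by edgeR, higher in lung in 4 (0.0524%) and lower in 12 (0.157%), and 492 (6.44%) had an unadjusted p under 0.05. *Pdcd1*, higher in lung producers, was at 233 and 150 CPM in MLN producers against 227 and 222 CPM in MLN non-producers (difference of the log2 differences 1.77 ± 0.38, edgeR adjusted p = 0.00212). The block in this fit was the library. Without the block and with DESeq2 no gene was higher in lung, so that the call of *Pdcd1* was lost. Without the lung 1 producers the value of *Pdcd1* was 0.28. *Areg* and *Ccl1* were nearly unread in MLN non-producers, at 8.62 and 3.41 CPM and at 6.1 and 0 CPM, so that the larger log2 step in MLN producers started from a far lower level. Without the 10 producers of MLN 2 no difference passed by edgeR, where 540 of 8567 had an unadjusted p under 0.05.

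The TCR was not used to split producers from non-producers. A clone was taken as the cells of 1 mouse with the same V and J segments and nucleotide CDR3 of all productive α- and β-chains. In lung 1, 134 of 351 producers (38.2%, 33.1 to 43.5) belonged to a clone of 2 or more lung cells. Of the non-producers it was 193 of 731 (26.4%, 23.2 to 29.8). In lung 2 the values were 16 of 88 (18.2%, 10.8 to 27.8) and 55 of 328 (16.8%, 12.9 to 21.3). These intervals take cells as independent, which the cells of 1 clone are not, so their overlap decides nothing. No test was run, since cells are not replicates and there were 2 mice. Producers were still diverse, with 300 clones among 351 cells and 86 among 88. Of 93 clones of 2 cells in lung 1, 41 had no producer, 32 had 1 and 20 had 2, and in lung 2 the 24 such clones split 13, 9 and 2. Of the clones of 2 or more cells, 83 of 130 in lung 1 and 14 of 30 in lung 2 held at least 1 producer, but every cell was a producer in only 25 and 2. Most of the clones of 2 or more cells with a producer thus also held cells with 0 UMIs of both genes, in which a transcript may have gone unread.

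The nucleotide CDR3 sequences of the 3 lung clones with 4 or more producers are shown because the pair of chains identifies each clone, followed by the α-chains alone of 2 further clones that used *Traj31*, all 5′ to 3′ as assembled in the deposited contigs. Capitals mark the 20 bases at the end of the CDR3 shared by the 3 clones of 4 or more lung cells that used *Traj31*.
Clone of 11 lung cells with 5 producers, lung 1, TRAV14N-3 with TRAJ22: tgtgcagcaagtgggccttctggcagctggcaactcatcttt
Its β-chain, TRBV5 with TRBJ1-6: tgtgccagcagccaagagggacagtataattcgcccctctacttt
Clone of 5 lung cells, all producers, lung 1, TRAV7D-3 with TRAJ31: tgtgcagtccGCAATAACAGAATCTTCTTT
Its β-chain, TRBV13-3 with TRBJ2-1: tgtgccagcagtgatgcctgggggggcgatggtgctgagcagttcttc
Clone of 5 lung cells with 4 producers, lung 1, TRAV13-1 with TRAJ37: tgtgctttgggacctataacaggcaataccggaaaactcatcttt
Its β-chain, TRBV13-3 with TRBJ1-2: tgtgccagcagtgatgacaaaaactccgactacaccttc
Clone of 4 lung cells with 2 producers, lung 1, TRAV6-6 with TRAJ31: tgtgcccataGCAATAACAGAATCTTCTTT
Clone of 4 lung cells with 1 producer, lung 1, TRAV7-5 with TRAJ31: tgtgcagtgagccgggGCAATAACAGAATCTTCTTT
The clone of 5 producers held 17 *Il5* UMIs, all in 1 cell, and 56 *Il13* UMIs. The clone of 11 cells held 7 *Il5* UMIs in 3 cells and 28 *Il13* UMIs. The shared end is the part that the J segment encodes, and *Traj31* was used by 24 of 351 producers (6.84%) and 56 of 731 non-producers (7.66%) in lung 1 and by 6 of 88 (6.82%) and 15 of 328 (4.57%) in lung 2, with overlapping intervals. The largest lung clone of mouse 2, of 7 cells, held 1 producer. An invariant TRAV11 with TRAJ18 chain, the mark of NKT cells, was found in 0 of 351 and 0 of 88 producers, with 95% Clopper-Pearson upper limits of 1.05% and 4.11% (3 counts in place of 0 would be 0.855% and 3.41%), against 3 of 731 and 8 of 328 non-producers.

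Clones were also followed into the MLN of the same mice. In lung 1, 34 of 351 producers (9.69%, 6.80 to 13.3) and 108 of 731 non-producers (14.8%, 12.3 to 17.6) had a clone that was also found in the MLN, and in lung 2 the numbers were 7 of 88 (7.95%) and 25 of 328 (7.62%). Among the MLN cells of the clones of lung 1 producers, 2 of 55 (3.64%) were producers themselves, and in lung 2 it was 0 of 8. For the clones of non-producers the share was no lower, with 8 of 152 MLN cells (5.26%) in lung 1 and 0 of 18 in lung 2. Over all MLN cells the shares were 1.22% and 1.33%.

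**Figure D5:**
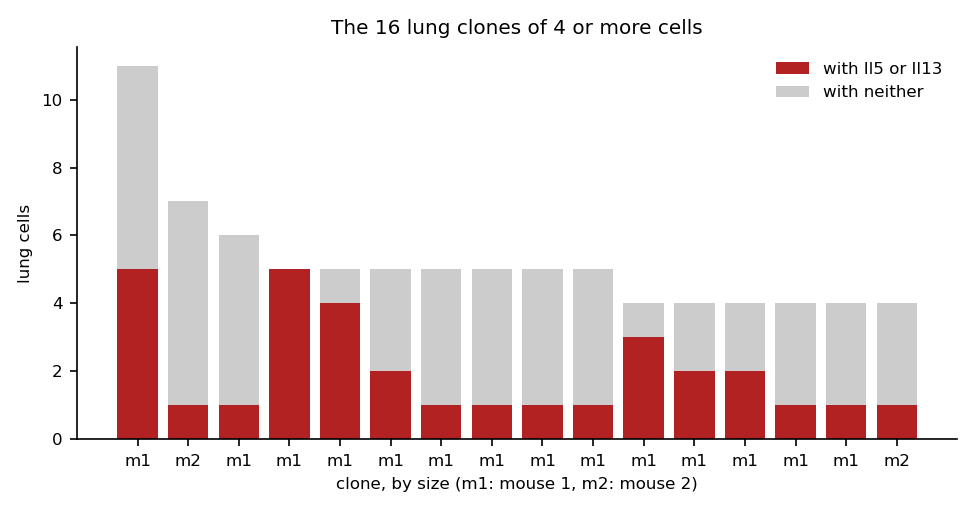
Number of lung cells (y axis, from 0) in each of the 16 lung clones of 4 or more cells, split into cells with Il5 or Il13 (red) and cells with neither (grey), m1 and m2 marking the mouse. Only 1 clone, of 5 cells, consists of producers throughout, while the largest, of 11 cells, holds 5.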

How the data were processed

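Sorted CD4+ IL-4eGFP+ cells of lung and MLN of 2 mice were sequenced with the 10x 5′ chemistry, with TCR libraries of the same cells. The authors aligned reads to mm10 and made the deposited counts (UMIs per gene and cell, not normalized, 2 sequencing runs per library combined) with Cell Ranger, and the submitters' processing notes name versions 2.1.1 and 3.0.1. The deposited TCR contigs were used where productive.

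Cells were filtered as stated, and classed by *Il5* and *Il13* UMIs. Without these and 268 TCR genes, each cell was thinned to 2000 UMIs (4 producer or non-producer sums, 349, 719, 88 and 320 cells). Cells below that depth were left out, 2 producers and 12 non-producers in lung 1 and 0 and 8 in lung 2. Sums were tested in R 4.3.3 with edgeR 4.0.16 (filterByExpr, TMM, glmQLFTest, mouse as block, Benjamini-Hochberg over all genes tested). The SE is the log2 difference divided by the root of F. The mouse is a block because both classes of a mouse are cut from 1 library (correlation of the mouse deviations over 6627 genes, r = 0.174). DESeq2 1.42.0 was an alternative. On simulated sums, 169 of 187 genes changed by a log2 fold of 2 were found for producers against non-producers, with 10 false calls among 6531 genes. These sums had the same dispersion for every gene and no difference between mice. They therefore do not give the rate of false calls in the real sums, where the mice differed. Named genes passed the test, had a mean of 50 CPM or more and the same sign in both mice, the 15 largest rises and the 10 largest falls, beside members of 28 gene lists. Doublets were not called except as TCR multiplets, left out in an alternative (10 and 3 producers). A medLN and MLN run was not used here.

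The members, gene lists and tests were chosen with earlier results of these data known. With 2 mice, p-values rest on a spread that edgeR shares across genes. The list of circulation and central memory genes is given without 1 item that is not reported here. A fit that used this item to leave out cells was replaced by one that uses *Ccr7* and *S1pr1* alone, chosen after the data were seen, which leaves out fewer cells, is the less strict of the pair and made more calls than the fit it replaced.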

Additional observations from a re-analysis of the deposited data

Results flagged for a closer look

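The difference between producers and non-producers was itself different between lung and MLN in 16 genes, by the interaction term of the edgeR fit over 8 sums. The 3 named genes with a higher difference in lung were *Lamtor4* (2.48 ± 0.64 SE), *Pdcd1* (1.77 ± 0.38) and *Gng5* (1.36 ± 0.34). None of them passed without the library block or with DESeq2. *Lamtor4* was at 66.7 and 0 CPM in MLN producers, from 4 and 0 UMIs, and *Gng5* at 317 and 400 CPM, against 648 and 629 CPM in MLN non-producers. The 5 named genes with a lower difference in lung were *Csf2* (-9.02 ± 0.99), *Myo6* (-3.48 ± 0.51), *Ccr9* (-3.20 ± 0.60), *Areg* (-2.96 ± 0.70) and *Ccl1* (-2.76 ± 0.70). The fitted values of *Csf2* and *Ccl1* start from almost no transcript, 1 and 0 UMIs of *Csf2* and 29 and 0 of *Ccl1* in MLN non-producers, and measure no exact fold. The 24 *Csf2* UMIs of MLN 2 producers came from 1 of 10 cells, and their 8 *Ccl1* UMIs from 1 cell. *Areg* was read in 2 of 30 and 1 of 10 MLN producers, against 202 of 349 and 26 of 88 lung producers. *Ccr9* was read in 5 of 30 and 2 of 10 MLN producers and in 12 of 349 and 2 of 88 lung producers. On simulated sums, 33 of 192 genes changed by a log2 fold of 2 were found for this comparison, so few of such differences can be seen with 40 MLN producers.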

How the results depend on the processing

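With 2 mice, 1 library per mouse and 439 producers, the number of calls moved with the processing. The named rises and falls kept their direction under every alternative run on them, except *Pdcd1* without the lung 1 producers. Of the 15 rises 4 and of the 10 falls 4 passed without the lung 1 producers, where *Plin2* was at 0.45 and *Pparg* at 0.57, and 7 and 4 passed with DESeq2. Against 365 calls, 80 were made without the mouse block, all 80 of them among the 365, 37 with DESeq2 (all shared, adjusted p not given for 2184 genes), 891 with all UMIs (318 shared), 176 without TCR multiplets, 129 without cells with *Ccr7* or *S1pr1* (122 shared, chosen after seeing the data, in place of a stricter fit with fewer calls) and 163 with non-producers matched on UMIs (155 shared). Another random thinning gave 358, of which 236 were shared, so single genes near the threshold depend on the draw. Leaving out 1 sum gave 33 (without lung 1 producers) to 173 (without lung 2 producers), with 76 without lung 2 and 119 without lung 1 non-producers. These fits have no block, since 3 sums leave it no residual degree of freedom, and the lone sample is assumed to vary like the others. Their range was -0.19 to 0.94 for *Il1rl1*, -0.11 to 1.99 for *Pdcd1*, -0.013 to 1.99 for *Areg*, -3.04 to 2.94 for *Cxcl2* and -0.34 to 1.26 for *Hilpda*. With cells counted whether or not they had a TCR, *Ccl4* was at 0.81 and *Cd74* at -0.74.

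For *Il5* against *Il13* alone, the 12 calls became 1 without the mouse block, 53 with all UMIs, 0 with DESeq2, 7 without a filter and 2 to 6 with 1 sum left out (0 of the 12 shared without the *Il13*-only cells of lung 1 or of lung 2), where Gm42418 ranged from -0.032 to 0.75. For lung against MLN, the 16 calls became 8 without the mouse block and 10 with DESeq2, all of them lower in lung, 175 with all UMIs and 0 (without MLN 2 producers) to 18 with 1 sum left out. The share of producers was 20.3% and 12.99% after thinning and 24.2% and 13.2% with at least 2 UMIs. By the β-chain CDR3 alone, 49.3% of producers and 37.8% of non-producers of lung 1, and 34.1% and 28.3% of lung 2, were in clones of 2 or more. Causes of these changes were not tested. Of the values of single named genes under the alternatives, 1570 kept their side of the threshold, 509 no longer passed and 20 newly passed. A further 8 changed sign, which counts only genes that had passed. Genes that had not passed could also change sign, such as *Nr4a1*, from 0.23 to -0.28 without the lung 1 producers.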
